A study of Homo sapiens with 15 samples.

Results

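HEXIM1, BRD2, BRD3 and MEPCE are 4 genes around the kinase P-TEFb, which releases paused RNA polymerase II into elongation. They were taken by name from the platform annotation with all of their array features, which gave 5 of the 44629 features in the table. HEXIM1 had a brighter and a dimmer feature, and the other genes had 1 feature each. After the brightest feature of each gene was kept, they were 4 of 14812 genes. Every array came from MV4-11, a cell line from human acute myeloid leukemia, and was hybridised to an Affymetrix whole-transcript array. The 5 groups held 3 arrays each. The cells had been exposed for 24 h to OTX015 at 300 nM, DW71177 at 300 nM, RVX208 at 5 uM, DW71374 at 300 nM or the vehicle DMSO. OTX015 (birabresib) is a thienotriazolodiazepine that binds both bromodomains of BET proteins, RVX208 (apabetalone) is a quinazolone that prefers the second bromodomain, and DW71177 and DW71374 are known here by their code names alone. Wells were treated in triplicate, and the labels name no separate cultures. The p-values therefore reflect the spread between these arrays of 1 cell line, which may be technical.

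P-TEFb consists of the kinase CDK9 and a cyclin T. Much of it is held inactive in a particle built on the noncoding 7SK RNA, in which the HEXIM1 protein blocks the kinase, and the enzyme encoded by MEPCE caps the 7SK RNA and stays bound to it. BET proteins read acetylated histones through their bromodomains and bring or help P-TEFb to act at promoters and enhancers. BRD2 and BRD3 encode widely expressed members of that family. HEXIM1 was first known as a gene induced by hexamethylene bisacetamide, and its transcript is used as a marker of exposure to BET inhibitors in blood and tumour samples.

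Values are the deposited signals on the log2 scale, and differences are between group means on that scale. Differences were tested with limma in a single fit of all 15 arrays, with Benjamini-Hochberg adjustment over the 14812 genes, and the threshold for a call was an adjusted p of 0.05. Array medians lay between 3.72 and 3.79, and across genes the correlation of replicates was 0.992 to 0.995. Of 16 myeloid leukemia markers 11 were measured, with DMSO means between 4.59 for MPO and 11.1 for LYZ; FLT3 stood at 9.80, SPI1 at 7.66 and KIT at 5.51, and MPO and KIT averaged under 5 over the 15 arrays. Of 14 markers of other cell types 6 were measured, and 0 of them changed in any of the 4 comparisons with DMSO. Over all genes 25.7%, 19.8%, 6.52% and 0% were called with OTX015, DW71177, RVX208 and DW71374. With 6 genes, 3 of them averaging under 5, that count is a description only. The keratin gene KRT18 had group means between 7.65 and 7.80, those of KRT8 and CD8A lay between 5.08 and 5.30, and those of EPCAM, PPBP and ALB between 1.82 and 3.68. In bulk RNA, a change in the share of cells that express a gene and a change in transcript per cell cannot be told apart.

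HEXIM1 rose with OTX015, DW71177 and RVX208. Its brighter feature read 7.96, 7.97 and 7.98 in the OTX015 arrays and 7.51, 7.38 and 7.39 in the DW71177 arrays. It read 7.05, 7.09 and 7.03 in the RVX208 arrays and 6.39, 6.20 and 6.44 in the DW71374 arrays, against 6.28, 6.28 and 6.39 in the DMSO arrays. The 3 OTX015 arrays were the highest of the 15, the DW71177 arrays came next and the RVX208 arrays after them, with no overlap between neighbours, while the DW71374 and DMSO arrays overlapped.

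**Figure D1:**
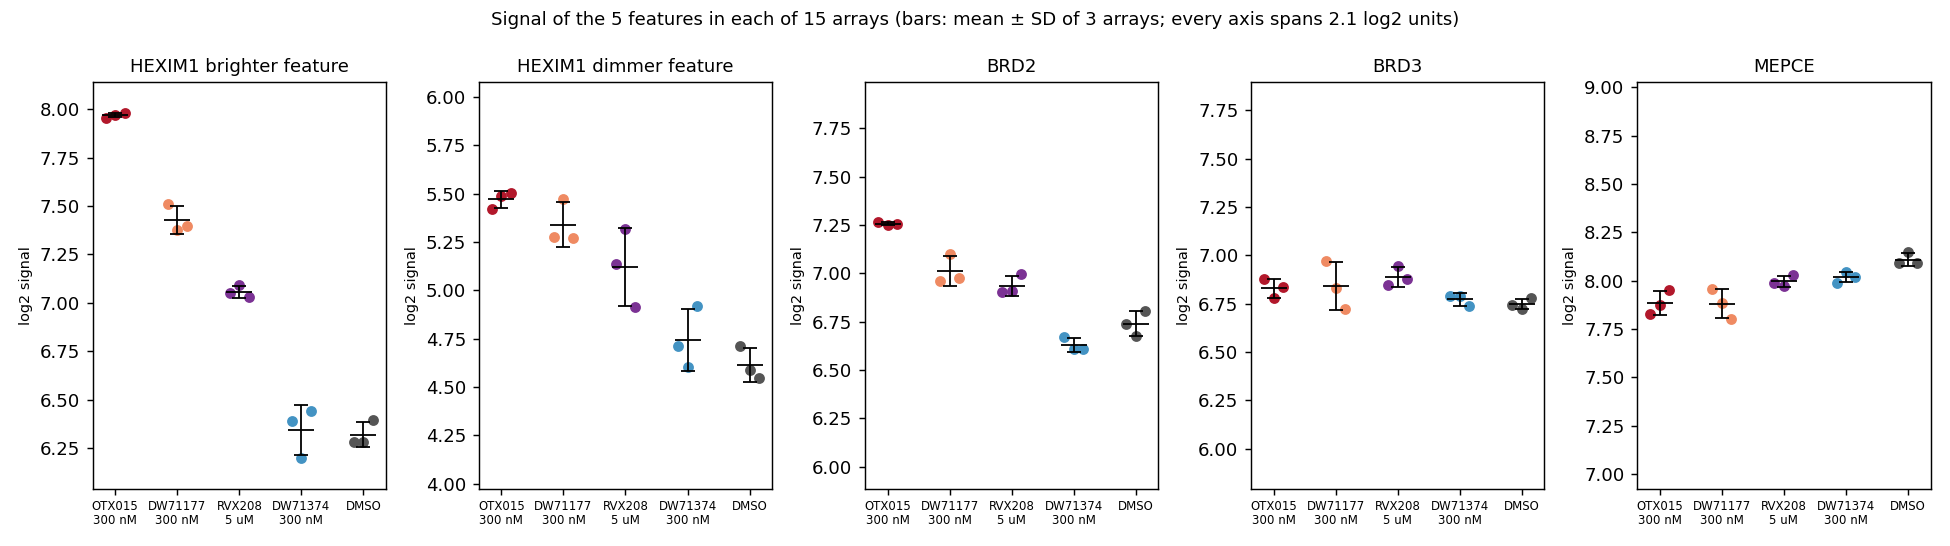
Log2 signal (vertical axis) of each of the 5 features in the 15 arrays by group, with coloured points for arrays and black bars for the mean ± SD of 3 arrays; every vertical axis spans the same range. The HEXIM1 brighter feature has means of 7.97 with OTX015, 7.43 with DW71177, 7.06 with RVX208 and 6.34 with DW71374, against 6.32 in DMSO, whereas the BRD3 points of all groups lie between 6.72 and 6.97.

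HEXIM1 was 3.14-fold higher with OTX015 than in DMSO (log2 difference 1.65 ± 0.068, standard error, n = 3 and 3, 95% confidence interval 1.51 to 1.80, limma adjusted p = 1.7e-09). Of the 14812 genes, 8 had a larger rise in that comparison. With DW71177 the rise was 2.16-fold (1.11, interval 0.96 to 1.26, limma adjusted p = 1.3e-07), and 19 genes had a larger rise. With RVX208 the rise was 1.67-fold (0.74, interval 0.59 to 0.89, limma adjusted p = 3.5e-05), and 16 genes had a larger rise. The difference between DW71374 and DMSO was 0.02 (interval -0.12 to 0.17, limma adjusted p = 0.99). These 4 comparisons share the DMSO arrays. The calls for the first 3 compounds held under each alternative setting and each left-out array.

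The dimmer HEXIM1 feature followed the same order of group means. It read 5.42, 5.48 and 5.50 with OTX015, 5.27, 5.47 and 5.27 with DW71177, 5.13, 5.32 and 4.91 with RVX208 and 4.71, 4.60 and 4.92 with DW71374, against 4.71, 4.59 and 4.55 in DMSO. Here the OTX015 and DW71177 arrays overlapped, as did the DW71177 and RVX208 arrays, and the lowest RVX208 array lay just under the highest DW71374 array. In a limma fit over all 44629 features it was 0.85 higher with OTX015 (adjusted p = 7.8e-05), 0.72 higher with DW71177 (adjusted p = 0.00052) and 0.51 higher with RVX208 (adjusted p = 0.026). In that all-feature fit 13.2%, 9.24% and 2.15% of features were called in these comparisons. The RVX208 call on this feature was lost, at adjusted p = 0.09 to 0.11, without DMSO replicate 2 or 3 or RVX208 replicate 1 or 2. The differences on the dimmer feature were smaller than on the brighter one with all 3 compounds, at group means of 4.62 to 5.47 that are close to the level of 5 under which a fold is here treated as a lower bound at best. The features correlated at 0.94 over the 15 arrays and at 0.33 after the group means were removed, and the sources used here do not say how their probes differ.

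The RefSeq promoter table held 1 window for HEXIM1, shown because this gene changed most among the 4. The window covers 250 bases before the transcript start and 50 from it on, at chr17:45148225-45148524, plus strand, GRCh38.p14. Capitals mark, on either strand, exact matches to 4 short motifs. The TATA box was searched as TATAAA and the CCAAT box as CCAAT. The GC box was searched as GGGCGG. The E-box bound by MYC and its partner MAX was searched as CACGTG.
HEXIM1: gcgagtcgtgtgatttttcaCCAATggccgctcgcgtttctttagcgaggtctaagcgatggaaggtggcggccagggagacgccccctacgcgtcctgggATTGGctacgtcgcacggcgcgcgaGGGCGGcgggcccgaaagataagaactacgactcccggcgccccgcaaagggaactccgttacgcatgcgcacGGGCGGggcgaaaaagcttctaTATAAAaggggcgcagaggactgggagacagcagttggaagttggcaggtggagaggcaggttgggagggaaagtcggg
Counted from the transcript start, the TATA box match begins at position -29, the 2 CCAAT box matches at -230 and -149, and the 2 GC box matches at -124 and -51. The E-box letters have no match in this window. Among all 35116 windows of the table, 11.5% hold the TATA box letters, 34.6% those of the CCAAT box, 45.0% those of the GC box and 7.3% those of the E-box. The window holds 62.0% G and C and 32 CG dinucleotides, against medians of 58.7% and 14 over all windows. A match describes letters and is not evidence that a factor binds there.

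The paralogue HEXIM2, which can take the place of HEXIM1 in the 7SK particle, did not pass the test with any compound on its brightest feature. Values of any other HEXIM2 feature are not given here. Its difference from DMSO was -0.04 in the OTX015 group, -0.00 in the DW71177 group, 0.02 in the RVX208 group and -0.01 in the DW71374 group, each ± 0.09. It was dim, with group means between 4.13 and 4.19, so any fold in it is at best a lower bound.

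BRD2 rose with OTX015 and DW71177, by less than HEXIM1. It read 7.27, 7.25 and 7.26 with OTX015, 6.96, 7.10 and 6.97 with DW71177, 6.902, 6.909 and 6.996 with RVX208 and 6.67, 6.61 and 6.61 with DW71374, against 6.74, 6.67 and 6.81 in DMSO. The OTX015 arrays were the highest and overlapped with no other group, the DW71177 and RVX208 arrays overlapped each other, and the DW71374 arrays lay just below those of DMSO. BRD2 was 1.43-fold higher with OTX015 (log2 difference 0.52 ± 0.058, interval 0.39 to 0.64, limma adjusted p = 1.3e-05) and 1.21-fold higher with DW71177 (0.27, interval 0.15 to 0.40, limma adjusted p = 0.0039).

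With RVX208 the BRD2 difference from DMSO was 0.20 (interval 0.07 to 0.32) and did not pass at limma adjusted p = 0.063, although the 3 arrays lay above all DMSO arrays. It passed with a variance trend (adjusted p = 0.027), after quantile normalization (adjusted p = 0.048), among genes with a mean of 5 or more (adjusted p = 0.014) and without DW71177 replicate 2 (adjusted p = 0.045). It did not pass over all features (limma adjusted p = 0.17) or with any other array left out (limma adjusted p up to 0.2). With DW71374 it was -0.11 (interval -0.24 to 0.02, limma adjusted p = 0.99).

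BRD3 passed the test with none of the compounds. It read 6.88, 6.78 and 6.83 with OTX015, 6.97, 6.83 and 6.72 with DW71177, 6.84, 6.94 and 6.88 with RVX208 and 6.79, 6.79 and 6.74 with DW71374, against 6.75, 6.72 and 6.78 in DMSO. The 3 DW71177 arrays spanned the range of every other group, and among the compounds only the RVX208 arrays lay wholly above those of DMSO. The differences from DMSO were 0.08 with OTX015 (interval -0.06 to 0.22, limma adjusted p = 0.45), 0.09 with DW71177 (-0.05 to 0.23, adjusted p = 0.4), 0.14 with RVX208 (0.00 to 0.28, adjusted p = 0.25) and 0.02 with DW71374 (-0.12 to 0.16, adjusted p = 0.99). With OTX015 the intervals of BRD2, from 0.39, and of BRD3, up to 0.22, did not meet; the difference between the genes was not tested.

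The promoters of the paralogues BRD2 and BRD3 are shown as a description. Whether they bear on the signals of these genes was not tested, and which BRD2 start these cells use was not examined. BRD2 has 4 windows in the RefSeq table and the most upstream is given (chr6:32968344-32968643, plus strand, GRCh38.p14), and BRD3 has 1 (chr9:134067977-134068276, minus strand). Capitals mark matches to the same motifs.
BRD2: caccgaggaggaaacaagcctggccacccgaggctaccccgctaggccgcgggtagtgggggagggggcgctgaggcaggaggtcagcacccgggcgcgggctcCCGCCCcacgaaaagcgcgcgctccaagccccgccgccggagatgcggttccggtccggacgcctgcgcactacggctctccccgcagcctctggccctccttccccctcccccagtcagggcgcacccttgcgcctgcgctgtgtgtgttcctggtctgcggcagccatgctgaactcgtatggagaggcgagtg
BRD3: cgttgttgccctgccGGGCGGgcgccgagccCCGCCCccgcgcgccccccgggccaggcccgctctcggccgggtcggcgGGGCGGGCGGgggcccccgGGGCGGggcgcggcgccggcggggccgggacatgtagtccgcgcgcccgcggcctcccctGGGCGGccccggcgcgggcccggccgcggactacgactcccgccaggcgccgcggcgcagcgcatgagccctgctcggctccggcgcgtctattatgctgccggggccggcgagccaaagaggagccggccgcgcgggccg
The BRD2 window holds 1 GC box match and the BRD3 window 6, of which 2 share bases, and neither holds a match to the other 3 motifs. The BRD3 window holds 85.0% G and C, more than 99.7% of all windows, and the BRD2 window shown 71.7%, more than 83.4%. The other windows of BRD2 hold less, at 64.3%, 50.3% and 66.0% G and C, with 1, 0 and 1 GC box matches.

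MEPCE fell with OTX015 and DW71177, by a small and similar amount. It read 7.83, 7.87 and 7.95 with OTX015, 7.96, 7.88 and 7.80 with DW71177, 7.99, 7.97 and 8.03 with RVX208 and 7.99, 8.04 and 8.02 with DW71374, against 8.09, 8.15 and 8.09 in DMSO. All 12 compound arrays, those of DW71374 included, lay below the 3 DMSO arrays. Over all genes 36.2%, 32.6%, 26% and 10.7% did not overlap with DMSO, either way, with OTX015, DW71177, RVX208 and DW71374 taken singly. How many genes do so with all of these compounds was not counted. MEPCE was 1.17-fold lower with OTX015 (log2 difference -0.22 ± 0.056, interval -0.35 to -0.10, limma adjusted p = 0.0083) and 1.17-fold lower with DW71177 (-0.23, interval -0.35 to -0.11, limma adjusted p = 0.01). With RVX208 it differed by -0.11 (interval -0.23 to 0.01, limma adjusted p = 0.3) and with DW71374 by -0.09 (interval -0.21 to 0.03, limma adjusted p = 0.99), and neither passed. In a fit of the 6 arrays alone the DW71177 call was lost at adjusted p = 0.067.

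**Figure D2:**
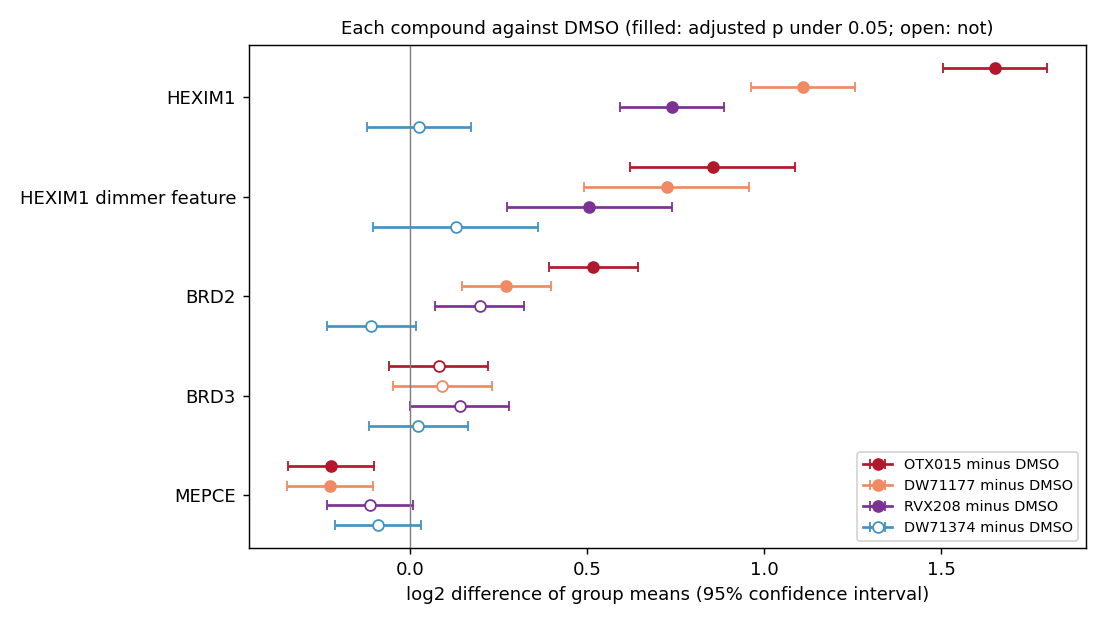
Log2 difference of each compound from DMSO (horizontal axis) for the 4 genes and the dimmer HEXIM1 feature, with 95% confidence intervals from limma, filled where the adjusted p was under 0.05. HEXIM1 lies farthest right at 1.65, 1.11 and 0.74 with OTX015, DW71177 and RVX208, BRD3 is open with every compound, and MEPCE is left of 0 and filled with OTX015 and DW71177.

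Counted together, 3 of the 4 genes changed with OTX015, where 25.7% of all genes were called, and the same 3 with DW71177, where 19.8% were. With RVX208 1 of 4 changed, against 6.52% of genes, and with DW71374 0 of 4, against 0% of genes, limma having called 0 there with 686 genes at an unadjusted p under 0.05. The arrays of a compound and of DMSO did not overlap for 3 of the 4 genes with OTX015 and with DW71177, for 4 with RVX208 and for 2 with DW71374. Over all genes 36.2%, 32.6%, 26% and 10.7% did not overlap in these comparisons. The 4 genes were chosen with earlier results of these data known, so these counts are descriptions.

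The 3 compounds given at 300 nM were then compared directly, in 3 pairs. In HEXIM1 the DW71177 mean was 1.46-fold below that of OTX015 (log2 difference -0.54, interval -0.69 to -0.40, limma adjusted p = 0.0035), at means of 7.43 and 7.97. All 3 DW71177 arrays lay below the 3 OTX015 arrays, and 1.26% of all genes were called in that pair. The call held with each array left out and was lost in a fit of the 6 arrays alone (adjusted p = 0.18), where 1 gene in all was called. On the dimmer feature the difference was -0.13 (interval -0.36 to 0.10, adjusted p = 0.77, where 0.177% of features were called) and did not pass, and with the mean of the features it was -0.34 (limma adjusted p = 0.049).

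BRD2 was also lower in every DW71177 array than in every OTX015 array, where 15.5% of all genes did not overlap either way (log2 difference -0.25, interval -0.37 to -0.12), and did not pass at limma adjusted p = 0.058. It passed with a variance trend (adjusted p = 0.017), after quantile normalization (adjusted p = 0.034) and among genes with a mean of 5 or more (adjusted p = 0.01). It did not pass over all features (limma adjusted p = 0.18) or with any array left out (limma adjusted p = 0.055 to 0.16). BRD3 differed by 0.01 (interval -0.13 to 0.15, limma adjusted p = 0.97) and MEPCE by -0.00 (interval -0.12 to 0.12, limma adjusted p = 0.99) between DW71177 and OTX015. These intervals bound a difference between the compounds in either gene to at most 0.15 on the log2 scale in either direction, and do not show that the compounds act alike.

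In HEXIM1 and BRD2, DW71374 differed from both other compounds at the same dose. HEXIM1 was 3.09-fold lower with DW71374 than with OTX015 (log2 difference -1.63, interval -1.78 to -1.48, limma adjusted p = 1.7e-09), and BRD2 was 1.54-fold lower (-0.63, limma adjusted p = 2.2e-06). In this pair 25.2% of all genes were called. HEXIM1 stood 2.12-fold higher with DW71177 than with DW71374 (1.08, interval 0.94 to 1.23, limma adjusted p = 1.7e-07), and BRD2 was 1.3-fold higher (0.38, limma adjusted p = 0.00031), where 19.5% of genes were called. The dimmer HEXIM1 feature differed by -0.73 and 0.60 in these pairs (adjusted p = 0.00032 and 0.0024 in the all-feature limma fit, where 12.6% and 8.91% of features were called). BRD3 passed in neither pair, at -0.06 for DW71374 minus OTX015 and 0.07 for DW71177 minus DW71374 (limma adjusted p = 0.62 and 0.58).

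MEPCE was 0.13 higher with DW71374 than with OTX015 and 0.14 lower with DW71177 than with DW71374, neither passing (limma adjusted p = 0.11 and 0.12), although in each pair the arrays did not overlap. Over all genes 36.2% and 31.6% did not overlap in these pairs. Both differences passed with a variance trend (adjusted p = 0.038 and 0.041) and among genes with a mean of 5 or more (adjusted p = 0.033 and 0.035). Neither passed over all features (limma adjusted p = 0.25 and 0.27) or with any array left out (limma adjusted p = 0.072 to 0.29 and 0.068 to 0.35). RVX208 was used at another dose and is not compared with these compounds by a test. At 5 uM its HEXIM1, BRD2, BRD3 and MEPCE means were 7.057, 6.936, 6.889 and 7.997, beside 7.426, 7.011, 6.840 and 7.882 with DW71177 at 300 nM.

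**Figure D3:**
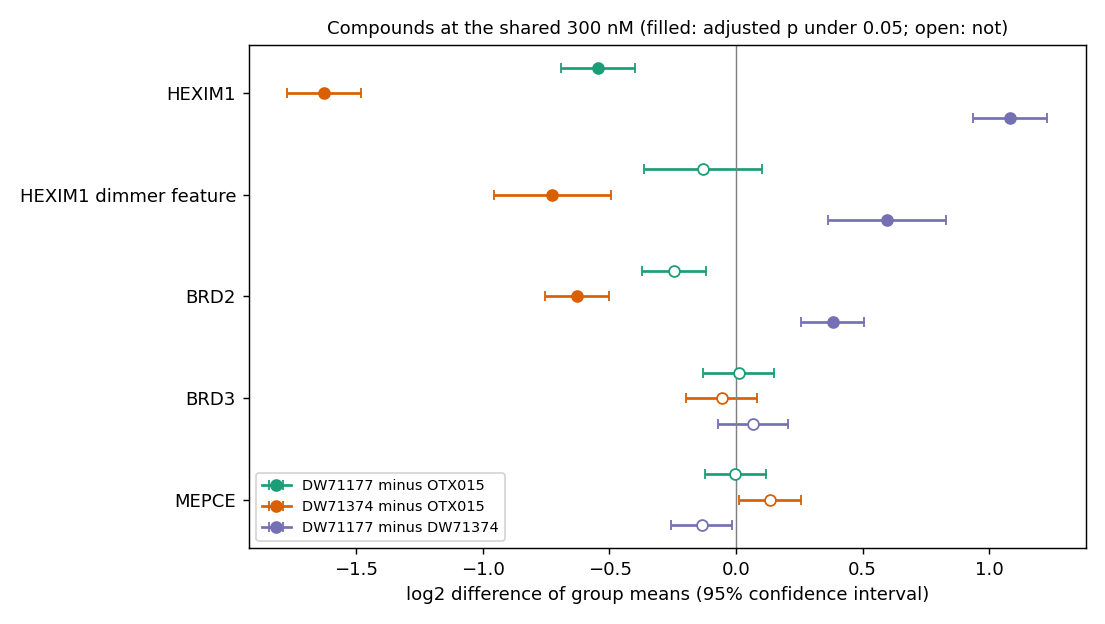
Log2 difference between compounds at 300 nM (horizontal axis) for the 4 genes and the dimmer HEXIM1 feature, with 95% confidence intervals, filled where the adjusted p was under 0.05. Both HEXIM1 features are filled for the pairs with DW71374, and for DW71177 minus OTX015 only the brighter one is, at -0.54.

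The other parts of the P-TEFb system moved less than HEXIM1. The lists below describe counts and medians beside those of all genes, whose median differences from DMSO were -0.0038 with OTX015, -0.0059 with DW71177 and -0.010 with RVX208. Over all genes 11.2% rose and 14.5% fell with OTX015, 9.95% rose and 9.88% fell with DW71177, and 3.41% rose and 3.11% fell with RVX208. With DW71374 0 members of any list changed, where 0% of all genes were called, so this count says nothing particular to the lists. Of the 6 genes of P-TEFb and related elongation kinases, 1 rose with OTX015 and with DW71177 and 0 changed with RVX208 (medians 0.09, 0.03 and 0.07). Over all genes 25.7%, 19.8% and 6.52% were called with these compounds, so the counts among 6 genes are near those shares. The gene that rose was CDK13, a kinase of the RNA polymerase II tail, at 0.34 with OTX015 and 0.25 with DW71177. CDK9 differed by 0.13 with OTX015 (limma adjusted p = 0.11), 0.07 with DW71177 and 0.07 with RVX208, and the cyclin T genes CCNT1 and CCNT2 by 0.01 and -0.05 with OTX015. None of the 3 passed against DMSO.

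Of 9 genes listed for the 7SK particle 6 were measured. HEXIM1 rose and MEPCE and HNRNPR, an RNA-binding protein that holds 7SK released from P-TEFb, fell with OTX015 and with DW71177, and HEXIM1 alone passed with RVX208 (medians 0.03, -0.01 and -0.04). HNRNPR fell by 0.43 with OTX015 and by 0.32 with DW71177. HNRNPA1, HNRNPA2B1 and HEXIM2 did not pass.

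Of 5 genes for factors that release P-TEFb from 7SK, 4 were measured, and 2 fell with OTX015, 1 with DW71177 and 1 with RVX208 (medians -0.13, -0.10 and -0.02), where 14.5%, 9.88% and 3.11% of all genes fell. DDX21, a nucleolar RNA helicase, fell 1.9-fold with OTX015 (-0.93 ± 0.053, limma adjusted p = 2.9e-08), 1.69-fold with DW71177 and 1.26-fold with RVX208. SRSF1, a splicing factor, fell by 0.20 with OTX015. SRSF2 and the demethylase gene JMJD6 differed by -0.03 and -0.05 with OTX015 and did not pass.

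The super elongation complex carries P-TEFb to genes, and 4 of its 10 listed members were measured. ELL, an elongation factor, rose 1.26-fold with OTX015 (0.33, limma adjusted p = 0.0028), and no member passed with DW71177 or RVX208 (medians 0.13, 0.09 and -0.03). Of 6 genes for the pausing factors NELF and DSIF 5 were measured, with medians of -0.20, -0.17 and -0.01. The NELF subunit NELFCD fell by 0.51 with OTX015 and by 0.34 with DW71177, NELFB fell by 0.25 with OTX015, and the DSIF subunit SUPT4H1 rose by 0.23 and 0.32 with these compounds, while SUPT5H did not pass. Of 6 listed PAF1 complex genes SKIC8 alone was measured, and it did not pass with any compound.

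BICRA, a chromatin remodelling subunit known to bind the ET domain of BET proteins, was the 1 of 4 measured ET-domain partners that passed, a share near the 25.7% and 19.8% of all genes called with OTX015 and DW71177. It rose by 0.31 with OTX015 and by 0.35 with DW71177, while CHD4, JMJD6 and NSD3 did not pass, and the list medians were 0.02 and 0.13. With RVX208 BICRA differed by 0.22 (limma adjusted p = 0.053).

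Among 36 other bromodomain proteins 18 were measured. With OTX015 7 rose and 1 fell, with DW71177 5 rose and 1 fell, and with RVX208 2 rose and 1 fell (medians 0.09, 0.10 and 0.06). In each of these comparisons the share that rose was above that over all genes. The paralogous acetyltransferase genes KAT2A and KAT2B moved in opposite directions. KAT2A fell 1.9-, 1.87- and 1.36-fold with OTX015, DW71177 and RVX208, and KAT2B rose 1.89-, 1.67- and 1.57-fold. SP110, a nuclear body protein, rose 1.64-, 1.59- and 1.35-fold with the same compounds. TRIM33 and EP300 rose by 0.42 and 0.32 with OTX015 and by 0.36 and 0.28 with DW71177, and BRD7, BRD8 and CREBBP passed with none of the compounds. Beside the 0.52 of BRD2, KAT2B, SP110 and TRIM66 rose by 0.92, 0.71 and 0.62 with OTX015.

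**Figure D4:**
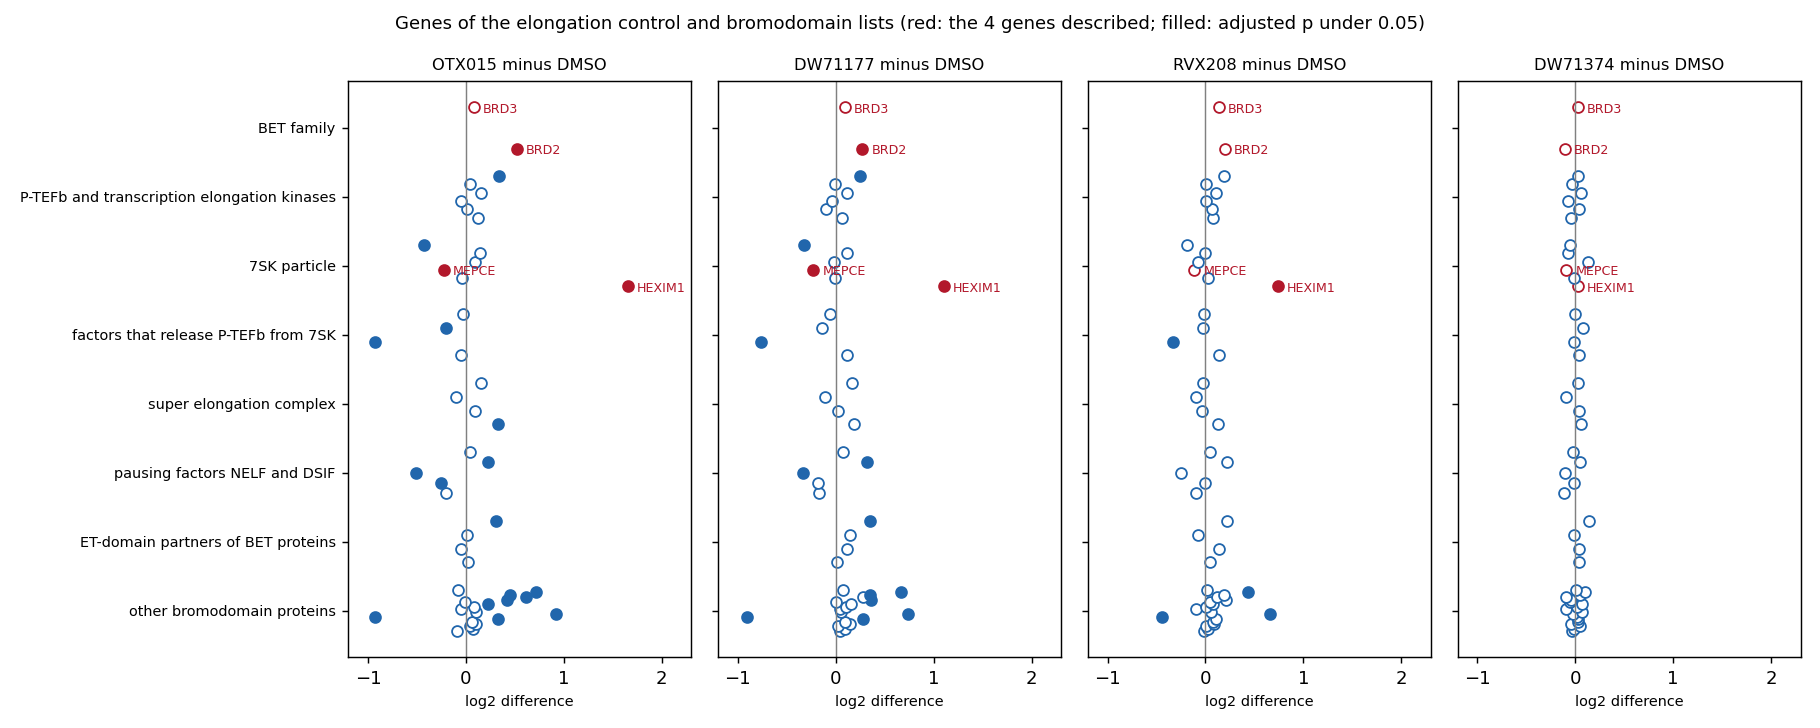
Log2 difference of each compound from DMSO (horizontal axis) for the measured genes of 8 lists, 1 point a gene, red for the 4 genes described and filled where the limma adjusted p was under 0.05. HEXIM1 is the point farthest right with OTX015, DW71177 and RVX208. With DW71374 all points are open, where 0% of all genes were called.

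Genes whose pattern was most like that of HEXIM1 were ranked by Pearson correlation over the 15 arrays, among 6735 other genes with a mean of 5 or more. The arrays share groups, so this describes likeness between group means and carries no p-value. The 5 most alike were DOP1B (0.99), NRIP3 (0.99), USP25 (0.99), CIRBP (0.99) and MKNK2 (0.99). USP25 encodes a deubiquitinase, CIRBP a cold-inducible RNA-binding protein and MKNK2 a kinase that acts on a cap-binding translation factor. After the group means were removed the correlations of the 5 with HEXIM1 ranged from -0.19 for CIRBP to 0.75 for DOP1B. All 5 rose with OTX015, DW71177 and RVX208, USP25 by 1.23, 0.94 and 0.62, where 11.2%, 9.95% and 3.41% of all genes rose. The genes were picked for likeness to HEXIM1 in these same arrays, so their rises follow from the choice.

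The 3 genes most opposite to HEXIM1 were the replicative helicase gene MCM6 (-0.99), the topoisomerase gene TOP2A (-0.99) and BCL2 (-0.99), an inhibitor of apoptosis. MYC was less opposite, at -0.95 and rank 310 from that end. With OTX015, DW71177 and RVX208 MYC differed from DMSO by -1.42, -1.16 and -0.32 and HEXIM1 by 1.65, 1.11 and 0.74. Of the other 3 genes described here, BRD2 correlated with HEXIM1 at 0.96 (rank 109 of 6735), BRD3 at 0.45 and MEPCE at -0.81.

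**Figure D5:**
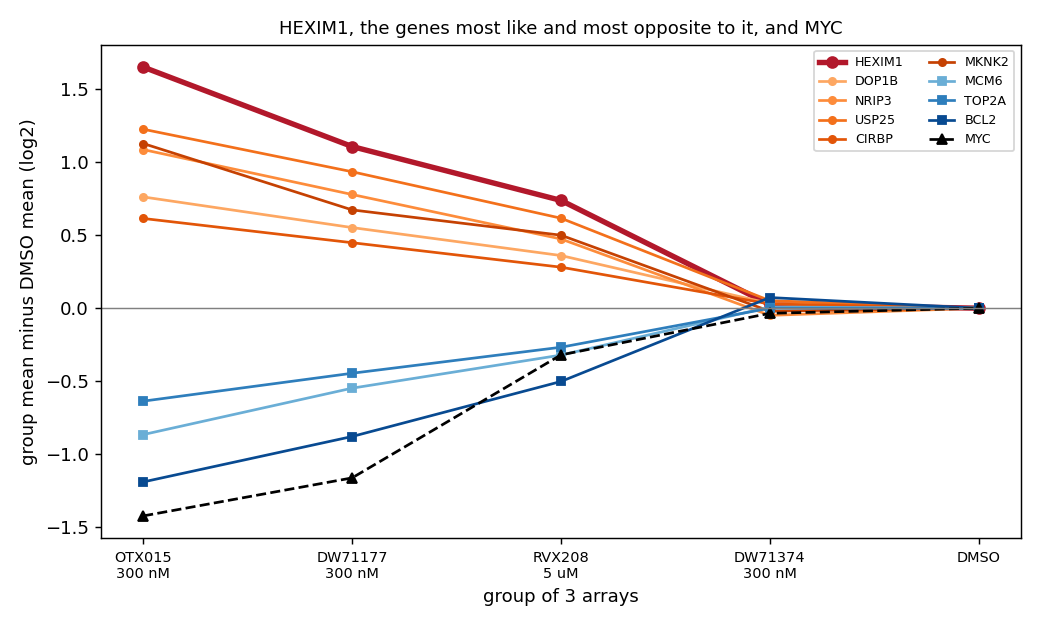
Group mean minus DMSO mean on the log2 scale (vertical axis) for HEXIM1, the 5 genes most like it, the 3 most opposite and MYC, by group; lines only join the points of a gene. With RVX208 MYC stands at -0.32 and BCL2 at -0.50, while with OTX015 MYC is the lowest at -1.42.

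The genes most like BRD2 were the lysosomal sialidase gene NEU1 (0.97), PHTF1 (0.97) and the deacetylase gene SIRT1 (0.97). For BRD3 the closest were GABARAP (0.82), VPS11 (0.80) and MTNAP1 (0.79), none of which passed the test with any compound against DMSO. For MEPCE they were TBL3 (0.94), a gene of ribosome assembly, RPS21 (0.92), a ribosomal protein gene, and HDGF (0.92). These 3 fell with OTX015 and with DW71177, by 0.45, 0.23 and 0.39 and by 0.43, 0.20 and 0.40, where 14.5% and 9.88% of all genes fell. All of these genes were picked for likeness in the same arrays, so their sharing a pattern with BRD2, BRD3 or MEPCE follows from the choice.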

How the data were processed

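The deposited table held log2 signals, a scale inferred from its values, for 44629 features in 15 arrays of an Affymetrix whole-transcript array. The quartiles of the 15 arrays were nearly the same, so the values appear to have been normalized across arrays before deposit. The software, background correction and build were not stated in the sources used here. Normalization across arrays would have removed a shift shared by all genes. Groups and replicate numbers came from the titles. The platform annotation named 1 gene for 15835 features and none for 28794. For 651 genes with several features the one with the highest mean was used, which left 14812 genes with no level filter. All 3 replicates of a group held the same deposited value for 29 to 62 genes, none of them described here.

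Group means were fitted with limma 3.58.1 in R 4.3.3 (lmFit, eBayes, 10 residual degrees of freedom), two-sided, with Benjamini-Hochberg adjustment over all genes, and over all features for the HEXIM1 features. The script was tested on simulated data. Intervals are 95%. Arrays give no counting depth, and their number limits the precision.

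The 4 genes and the 12 gene lists were chosen with earlier results of these data known. Named genes were the 4 genes, list members, MYC, and the genes most like each of the 4 (5 and 3 opposite for HEXIM1, 3 for the others). Listed genes that the annotation did not name were not analysed here. Alternatives were a replicate block, the 6 arrays compared alone, a variance trend, quantile normalization, mean of features, a minimum mean of 5, all features, and each array left out. Replicate numbers did not pair the arrays, as the labels name no shared source and same-numbered arrays of different groups correlated at -0.087 to 0.098 after group means were removed. Promoter windows were RefSeq sequences of GRCh38.p14.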

Additional observations from a re-analysis of the deposited data

How the results depend on the processing

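The alternatives left every call of HEXIM1 against DMSO in place on the brighter feature, with OTX015 at 1.63 to 1.69, DW71177 at 1.07 to 1.15 and RVX208 at 0.72 to 0.78 when single arrays were left out, and at 1.25, 0.92 and 0.62 with the mean of features. With a replicate block 40 of 42 results kept their direction and side of the threshold. The block ended the RVX208 call of the dimmer HEXIM1 feature (0.51, adjusted p = 0.052) and gave 107 calls, against 186, for DW71177 minus OTX015, and 7 of 15 arrays correlated best with an array of their own number. With a variance trend, BRD2 passed with RVX208 (0.20) and for DW71177 minus OTX015 (-0.25), and MEPCE for DW71374 minus OTX015 (0.13) and DW71177 minus DW71374 (-0.14). The same 4 differences, unchanged in size, passed among genes with a mean of 5 or more. None of the 4 passed over all features (limma adjusted p = 0.17 to 0.27). Quantile normalization made the BRD2 differences 0.20 and -0.28, both passing, and turned BRD3 for DW71177 minus OTX015 to -0.025, which passed in no setting. In the 6 arrays alone MEPCE with DW71177 (-0.23) and HEXIM1 for DW71177 minus OTX015 (-0.54) no longer passed.

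Leaving out single arrays turned the sign of 3 differences near 0: BRD3 for DW71177 minus OTX015 ranged from -0.053 to 0.071, MEPCE for the same pair from -0.041 to 0.036, and HEXIM1 for DW71374 minus DMSO from -0.025 to 0.097. It moved BRD2 with RVX208 between 0.16 and 0.23 and the dimmer HEXIM1 feature with RVX208 between 0.41 and 0.61.

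For RVX208 minus DMSO the number of genes called was 966, against 1474 with a variance trend, 1576 of the 6736 genes with a mean of 5 or more, 609 in the 6 arrays alone and 564 to 1050 with an array left out, with 564 to 636 where that array was of DMSO or RVX208. For DW71177 minus OTX015 it was 186, against 495, 593, 1 and 71 to 139, and 79 over all features. Over all features, where more are tested, OTX015 minus DMSO had 5872 calls against 3800 and DW71374 minus OTX015 5604 against 3730. For DW71374 minus DMSO it was 0 to 1. The cause of these moves was not tested.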

Other observations

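Among other genes used as markers of BET inhibitor exposure, DCXR rose and CCR2 fell with OTX015, DW71177 and RVX208. CD180 fell with OTX015 and DW71177 only. DCXR, which encodes a carbonyl reductase, rose 1.53-fold with OTX015, 1.4-fold with DW71177 and 1.36-fold with RVX208 (log2 differences 0.62, 0.49 and 0.45, limma adjusted p = 4.4e-06, 5.9e-05 and 0.00069). The chemokine receptor gene CCR2 differed from DMSO by -3.94, -3.65 and -2.18 with these compounds on the log2 scale, and its means of 4.32 with OTX015 and 4.62 with DW71177 make the first and second of those falls lower bounds at best. CD180, which encodes a Toll-like receptor homologue, fell 2.33-fold with OTX015 and 1.49-fold with DW71177. With RVX208 its difference from DMSO was -0.00 ± 0.053 (limma adjusted p = 0.99), at 5 uM and in the same arrays in which HEXIM1 was 0.74 higher. None of these genes passed with DW71374, where 0% of all genes were called.

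At the shared 300 nM, CD180 was 1.56-fold higher with DW71177 than with OTX015 (0.64, limma adjusted p = 6.1e-05), and MYC was 1.2-fold higher (0.26, limma adjusted p = 0.037). CCR2 and DCXR differed by 0.29 and -0.13 in that pair and did not pass (limma adjusted p = 0.18 and 0.39).

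Of 11 measured myeloid leukemia markers 3 rose and 7 fell with OTX015, 3 rose and 6 fell with DW71177 and 2 rose and 4 fell with RVX208, the compounds with which HEXIM1 rose. Over all genes 11.2% rose and 14.5% fell with OTX015, 9.95% and 9.88% with DW71177 and 3.41% and 3.11% with RVX208. The part of these markers in the HEXIM1 result was not tested. The dimmer HEXIM1 feature held the same deposited value, 4.71, in replicate 1 of DW71374 and of DMSO.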
